A study of Mus musculus with 4 samples.

Results

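The GDNF-RET self-renewal genes were examined in single-cell RNA-seq of mouse testes at postnatal day 15 (P15). They are 10 genes taken by symbol, *Gdnf*, *Gfra1*, *Ret*, *Etv5*, *Id4*, *Zbtb16*, *Lhx1*, *Bcl6b*, *Nanos2* and *Nanos3*, of the 32285 genes in the count matrices, and all 10 were found. The samples were 4 libraries of droplet-captured testicular cells on the C57BL/6N background, 2 from wild-type and 2 from *Meioc* KO (*Meioc*-null) males. Each library came from 1 testis of 1 mouse, and replicate 1 of both genotypes formed batch 1 and replicate 2 formed batch 2, each batch being a pair of littermates. According to the study's methods, all mice were also heterozygous for *Hspa2* tm1Dix and homozygous for a ROSA26-tdTomato reporter whose stop cassette was intact, and the interstitial tissue was discarded during dissociation. P15 testes hold germ cells from spermatogonial stem cells up to pachytene spermatocytes and no spermatids. Each p-value below measures the spread between libraries of 2 mice per genotype, except in the test of whether the genotype effect differed over germ clusters. That fit holds a library term, so its p-values measure the spread of clusters within the same 4 libraries.

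Spermatogonial stem cells renew in the seminiferous tubule under the control of glial cell line-derived neurotrophic factor (GDNF), a ligand secreted by somatic cells around and within the tubule. GDNF binds GFRA1, a receptor anchored in the outer leaflet of the membrane, and the pair then activates the transmembrane tyrosine kinase RET, which signals through adaptor proteins to the PI3K-AKT and RAS-ERK kinases. In cultured spermatogonia GDNF raises transcription of *Etv5*, *Lhx1*, *Bcl6b* and *Id4*, whereas *Zbtb16*, *Nanos2* and *Nanos3* encode a transcriptional repressor and a pair of RNA-binding proteins with roles in keeping germ cells undifferentiated. When spermatogonia differentiate they lose the GDNF receptors and take up KIT.

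Levels are given as UMIs (counted molecules) of a gene per 1000000 UMIs of the same cell class and library (CPM), always in the order wild type 1, wild type 2, *Meioc*-null 1 and *Meioc*-null 2 where 4 values are listed. Barcodes with more than 1000 detected genes and under 10% mitochondrial UMIs numbered 6334, 8494, 7550 and 7214, and 5644, 7505, 6554 and 6522 remained after doublet removal, with median depths of 13145, 12971, 11701.5 and 14420.5 UMIs. Between 12 and 16 of the kept barcodes were shared by any pair of libraries. Wild-type cells were clustered without the 10 genes and without any other listed pathway gene, and each *Meioc*-null cell was placed by its nearest wild-type cells. Germ cells formed 10 clusters, ordered from spermatogonia to spermatocytes. Cluster 1 was undifferentiated spermatogonia-like, since 8 of 10 markers were detected in at least 25% of its cells and the summed marker level was 1050 to 1227 CPM, against 122 to 141 CPM in cluster 2. It held 422, 503, 470 and 490 cells. Clusters 2, 3 and 5 were differentiating spermatogonia-like, clusters 8 and 9 early spermatocyte-like and cluster 10 pachytene spermatocyte-like, while cluster 4 was shallow (median 2925.5 UMIs in wild type) and stayed unnamed. Cluster 7, led by *Stra8*, a gene of cells about to enter meiosis, had summed marker levels of 3162 to 3887 CPM for differentiating spermatogonia and 2919 to 3263 CPM for early spermatocytes, and cluster 6 had 1479 to 1760 and 1255 to 1796 CPM, so both are given by number alone. No *Meioc*-null cell was placed in cluster 10, 0 of 5196 and 0 of 5157 germ cells, which allows shares of up to 0.0710% and 0.0715% for counting error only, since these cells were placed in classes drawn from wild-type cells. The study, which clustered both genotypes together, did class some *Meioc*-null cells as pachytene, and it reported a mutant-only cluster of spermatocytes. Here cells of a kind that wild type lacks could only take a wild-type class. Of the somatic classes, Sertoli-like, peritubular myoid-like and fibroblast-like cells had at least 50 cells in every library and Leydig-like cells did not. *Meioc* itself stood at 626, 682, 673 and 645 CPM in cluster 7 and 607, 557, 811 and 791 CPM in cluster 8, so its tags were not fewer there in the libraries labelled *Meioc*-null. They were also higher in *Meioc*-null in cluster 9, at 458, 489, 616 and 681 CPM. In clusters 3 and 5 they were lower, at 114, 113, 79.5 and 74.3 CPM and at 346, 340, 301 and 282 CPM. These 3′ tags check the genotype only if they lie in the deleted part of the gene, and the sources used here give no position for it.

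Most of the counted *Gdnf* transcripts, those of the ligand, were in the peritubular myoid-like cells, the contractile cells that wrap the tubule. Such a share depends on how many cells of each class were captured. The gene (ENSMUSG00000022144) lies on chromosome 15 from 7810846 to 7837575 on the plus strand of GRCm38. It gave only 261, 318, 330 and 424 UMIs per library over all classes, of which the myoid-like cells held 74.3, 70.8, 85.8 and 83.5% although they held 5.79, 5.80, 7.25 and 8.92% of all UMIs. The myoid-like level was 32.4, 30.0, 40.0 and 32.8 CPM, with a *Gdnf* UMI in 25.0, 27.6, 27.0 and 31.2% of cells. All 4 libraries gave a similar level, and no other class reached it in any library.

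Sertoli-like cells, the epithelial nurse cells inside the tubule that are the classical source of GDNF, gave 4.56, 9.0, 3.34 and 4.74 CPM, from 27, 47, 13 and 20 UMIs. The myoid-like level was thus 3.33 to 12 times the Sertoli-like one within a library. Pooled over libraries, the levels were 33.7 CPM (95% exact Poisson interval 31.7 to 35.8) in myoid-like and 5.56 CPM (4.56 to 6.72) in Sertoli-like cells, intervals that cover counting error only. The Sertoli-like class joined a deep cluster (median 36771.5 UMIs) to a shallow one (median 2146 UMIs). In the deep cluster alone *Gdnf* stood at 5.23, 9.70, 3.11 and 5.45 CPM, still under the myoid-like CPM of the same library. CPM is a share of a class's UMIs and not an amount per cell, and wild-type myoid-like cells had a median of 9818 UMIs. A *Gdnf* UMI was found in 14.6, 28.0, 9.09 and 14.3% of the deep Sertoli-like cells, against 25.0, 27.6, 27.0 and 31.2% of myoid-like cells. By cells with a UMI, the 2 classes were thus alike in wild type 2. Leydig-like cells gave 7.93, 9.01, 2.68 and 8.01 CPM from 1 to 13 UMIs per library, and their range overlapped that of Sertoli-like cells. Fibroblast-like cells followed at 1.81 to 1.98 CPM. In the germ line, cluster 1 had 0.227 to 0.412 CPM from 17 UMIs in all, and clusters 4, 6 and 10 had none. Cluster 2 had the highest pooled level of the germ clusters, at 1.52, 1.01, 1.20 and 1.00 CPM (pooled 1.13, interval 0.883 to 1.43). In *Meioc*-null 1 cluster 9 lay above it, at 1.29 CPM from 4 UMIs. Cells were also thinned to 2000 UMIs, which left out 241, 79, 156 and 108 shallower cells over all classes. A *Gdnf* UMI then remained in 5.18, 6.91, 6.99 and 5.22% of myoid-like cells, in 0.366 to 1.5% of Sertoli-like cells and in 0 to 0.238% of cluster 1 cells. The cluster 1 share was taken as a background level, although the CPM of cluster 2 was higher than that of cluster 1. The summed level of the 5 myoid markers was 18728 to 21182 CPM in myoid-like and 198 to 219 CPM in Sertoli-like cells, and the part of myoid RNA in the Sertoli-like value was not tested.

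**Figure D1:**
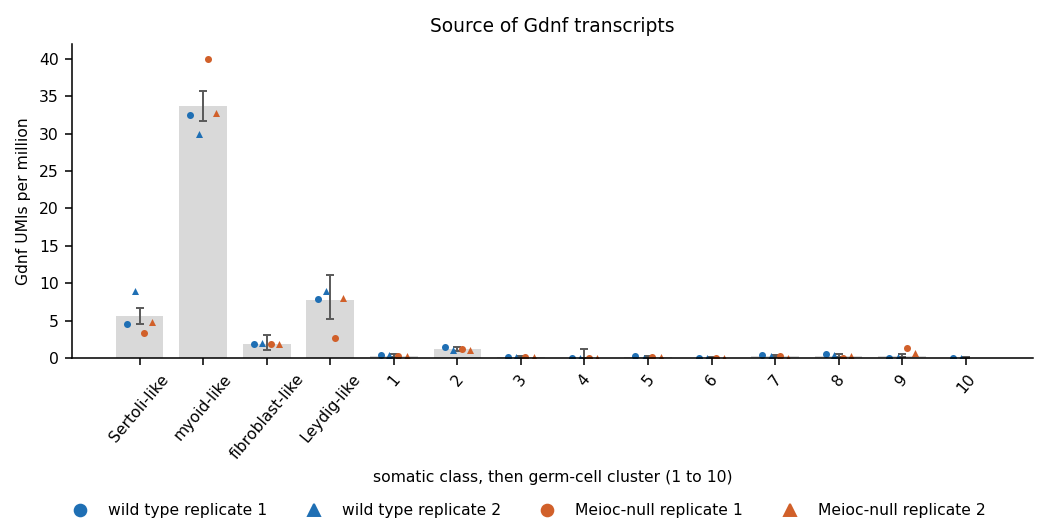
*Gdnf* CPM in each somatic class and germ-cell cluster. Bars are the 4 libraries pooled, whiskers the exact 95% Poisson interval and points the single libraries (circles replicate 1, triangles replicate 2). The 4 points of the myoid-like cells lie between 30.0 and 40.0, above every point of the other classes.

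*Gfra1* and *Ret*, which encode the receptor pair, were almost restricted to cluster 1 among germ cells. *Gfra1* (ENSMUSG00000025089, chromosome 19, 58235604 to 58455909, minus strand) stood at 53.6, 50.1, 67.0 and 46.2 CPM in cluster 1, from 651, 708, 886 and 764 UMIs, and at 0.760, 0.797, 1.04 and 1.26 CPM in cluster 2. The step between neighbouring clusters was 36.8- to 70.5-fold within a library, far beyond the spread between libraries in either cluster. Cluster 1 held 95.5 to 96.7% of the *Gfra1* UMIs of germ cells, although it held 12.5 to 16.3% of their UMIs. A *Gfra1* UMI was found in 47.9 to 58.5% of cluster 1 cells and in 2.10 to 3.16% of cluster 2 cells. At 2000 UMIs per cell these shares were 10.6 to 13.6% and 0.166 to 0.601%, and 0 to 0.179% in myoid-like cells. An antisense gene, *Gm16277*, overlaps *Gfra1*, and the sources used here do not say whether the counting used strand.

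*Ret* (ENSMUSG00000030110, chromosome 6, 118151745 to 118197718, minus strand) followed the same course. Its level was 62.2, 51.6, 65.9 and 48.9 CPM in cluster 1 and 1.24, 1.22, 1.75 and 1.11 CPM in cluster 2, a step of 37.6- to 50.3-fold, and cluster 1 held 93.6 to 95.4% of the germ-cell UMIs. For both receptor genes the batch 1 library of each genotype lay above its batch 2 library in cluster 1. *Ret* was detected in 64.5 to 71.3% of cluster 1 cells.

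The sequences before a transcription start are shown for 3 members as examples of different locations: *Gdnf* in myoid-like cells, *Id4* in spermatogonia, pachytene-like spermatocytes and somatic cells, and *Nanos3* in spermatogonia. Each run is the 250 bases before a RefSeq start, written 5′ to 3′ on the gene's own strand from GRCm38.p6, and holds no base of a GENCODE exon. A second *Gdnf* start region, with 1 E-box, and a second one of *Etv5* also held none and are not shown. *Gdnf* is chr15:7809798-7810047 on the plus strand, *Id4* chr13:48260866-48261115 on the plus strand and *Nanos3* chr8:84176553-84176802 on the minus strand, the last of these starts lying inside the GENCODE gene. Capitals mark matches on either strand to CCGGAA (the core of an ETS factor site, the family of ETV5), CANNTG (the E-box bound by basic helix-loop-helix factors, which ID4 binds and inhibits) or TGTTTAC (a forkhead site).
Gdnf: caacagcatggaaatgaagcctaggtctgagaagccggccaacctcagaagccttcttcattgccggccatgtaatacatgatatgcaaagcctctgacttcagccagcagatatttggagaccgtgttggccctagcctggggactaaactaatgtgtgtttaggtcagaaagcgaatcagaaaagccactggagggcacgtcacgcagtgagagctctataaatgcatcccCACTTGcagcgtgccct
Id4: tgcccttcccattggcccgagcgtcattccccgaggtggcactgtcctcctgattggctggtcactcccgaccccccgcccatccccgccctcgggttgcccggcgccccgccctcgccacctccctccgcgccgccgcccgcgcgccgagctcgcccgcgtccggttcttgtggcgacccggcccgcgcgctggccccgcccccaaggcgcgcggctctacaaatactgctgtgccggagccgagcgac
Nanos3: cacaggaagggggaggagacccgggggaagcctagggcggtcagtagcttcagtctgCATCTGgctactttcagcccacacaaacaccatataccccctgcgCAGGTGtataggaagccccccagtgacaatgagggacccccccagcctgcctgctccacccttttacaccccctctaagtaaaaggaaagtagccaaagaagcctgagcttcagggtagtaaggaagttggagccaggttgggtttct
The *Gdnf* run held 1 E-box, CACTTG, 17 to 12 bases before the start, the *Nanos3* run held 2, CATCTG at 193 to 188 and CAGGTG at 148 to 143 bases before it, and the *Id4* run held no match and had a GC content of 75.6%. Among 32851 RefSeq start regions of this length, 66.2% held an E-box, 12% the ETS core and 3.17% the forkhead site, so a match or its absence is a description of these letters only.

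*Etv5*, an ETS transcription factor gene induced by GDNF, was not restricted to cluster 1. It lies on chromosome 16 from 22381309 to 22439719 (ENSMUSG00000013089, minus strand). In cluster 1 it stood at 38.2, 37.5, 38.0 and 29.9 CPM, against 0.478 to 1.83 CPM in cluster 2. Leydig-like cells had 42.8, 38.7, 18.7 and 24.0 CPM, myoid-like cells 26.2, 29.7, 30.0 and 30.8 CPM and fibroblast-like cells 24.0, 29.7, 24.1 and 24.0 CPM, a class in which the endothelial marker *Pecam1* stood at 2.35, 0.396, 3.01 and 64.0 CPM. Neighbours in the order cluster 1, Leydig-like, myoid-like and fibroblast-like overlapped, although cluster 1 lay above fibroblast-like cells in all 4 libraries, and Sertoli-like cells lay below these 4 classes at 13.5, 15.9, 15.7 and 16.4 CPM. Germ cells held 53.4 to 66.3% of all *Etv5* UMIs, against 98.3 to 99.6% of those of *Gfra1*. *Etv5* transcripts were thus counted in both germ and somatic cells of every library.

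*Lhx1* and *Bcl6b*, a LIM homeobox factor gene and a BTB zinc-finger repressor gene that GDNF also induces, were low and concentrated in cluster 1. *Lhx1* (ENSMUSG00000018698, chromosome 11, 84518284 to 84525535, minus strand) gave 22.2, 19.9, 24.8 and 15.2 CPM in cluster 1 and 0.603 to 1.67 CPM in cluster 2. *Bcl6b* (ENSMUSG00000000317, chromosome 11, 70224128 to 70229798, minus strand) gave 12.6, 11.8, 15.3 and 11.5 CPM in cluster 1 and 1.44 to 1.71 CPM in cluster 2. In both genes every cluster 1 value lay above every cluster 2 value.

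*Id4*, whose protein inhibits basic helix-loop-helix factors, was found at both ends of the germ line and in somatic cells. The gene (ENSMUSG00000021379) spans 48261228 to 48266026 of chromosome 13 on the plus strand and is overlapped by *A330033J07Rik* and *Gm49291* on the other strand. Its level was 49.4, 54.0, 44.8 and 48.0 CPM in cluster 1 and 4.85, 3.08, 2.87 and 2.71 CPM in cluster 2. Apart from the shallow cluster 4 (33.7, 16.6, 18.3 and 3.72 CPM, from 4 to 20 UMIs), it was low through the middle clusters and in wild type then higher again, at 17.1 and 13.5 CPM in cluster 9 and 211 and 213 CPM in cluster 10, where 90.6 and 94.3% of cells had an *Id4* UMI. The cluster 10 values of both wild-type libraries lay well above their cluster 1 values. Cluster 1 held 16.6 and 20.7% of the germ-cell *Id4* UMIs of wild-type testes. Its share was 83.1 and 86.2% in *Meioc*-null testes, which had no cluster 10 cells. Among somatic classes, Sertoli-like cells had 48.5, 37.9, 44.5 and 43.6 CPM and myoid-like cells 30.1, 36.7, 37.0 and 29.5 CPM. Fibroblast-like and Leydig-like cells were lower, at 7.64 to 10.3 and 0.901 to 5.36 CPM.

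*Zbtb16*, encoding the repressor PLZF that marks undifferentiated spermatogonia, declined gradually rather than in 1 step. It lies on chromosome 9 from 48654297 to 48836222 (ENSMUSG00000066687, minus strand). Cluster 1 had 208, 165, 245 and 180 CPM and a *Zbtb16* UMI in 91.7 to 96.7% of cells. The level was 48.6, 45.2, 59.6 and 42.8 CPM in cluster 2, 32.4, 27.3, 40.0 and 26.4 CPM in cluster 3 and 15.6, 11.3, 21.1 and 13.2 CPM in cluster 5. The ratio of cluster 1 to cluster 2 was 3.65 to 4.29, well below the ratios of *Gfra1* and *Ret*, and cluster 1 held 60.1 to 67.5% of the germ-cell UMIs. Clusters 6 and 7 had 8.08, 4.03, 8.16 and 4.48 CPM and 3.04, 2.81, 5.44 and 3.46 CPM, and clusters 8 to 10 stayed under these levels. Myoid-like cells gave 15.7, 13.9, 21.5 and 22.3 CPM.

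The *Nanos* genes were both highest in cluster 1. *Nanos2* (ENSMUSG00000051965, chromosome 7, 18987400 to 18988962, plus strand, overlapped by the antisense gene *Gm45058*) was sparse, with 75, 64, 63 and 73 UMIs in cluster 1, which is 6.18, 4.53, 4.77 and 4.41 CPM and 11.3 to 14.7% of cells. Cluster 1 held 96.1 to 98.5% of its germ-cell UMIs, and clusters 5 and 7 to 10 had none. *Nanos3* (ENSMUSG00000056155, chromosome 8, 84173731 to 84185217, minus strand) stood at 82.9, 84.1, 80.7 and 86.3 CPM in cluster 1 and at 2.81 to 4.39 CPM in cluster 2, a ratio of 18.4 to 29.9. It also had 26.0, 26.6, 41.8 and 50.3 CPM in the shallow, unnamed cluster 4, from 10, 32, 16 and 54 UMIs. *Gfra1* had 0, 4.15, 5.22 and 0.931 CPM there and *Ret* 2.60, 0.830, 7.84 and 4.65 CPM, both from at most 5 UMIs per library.

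**Figure D2:**
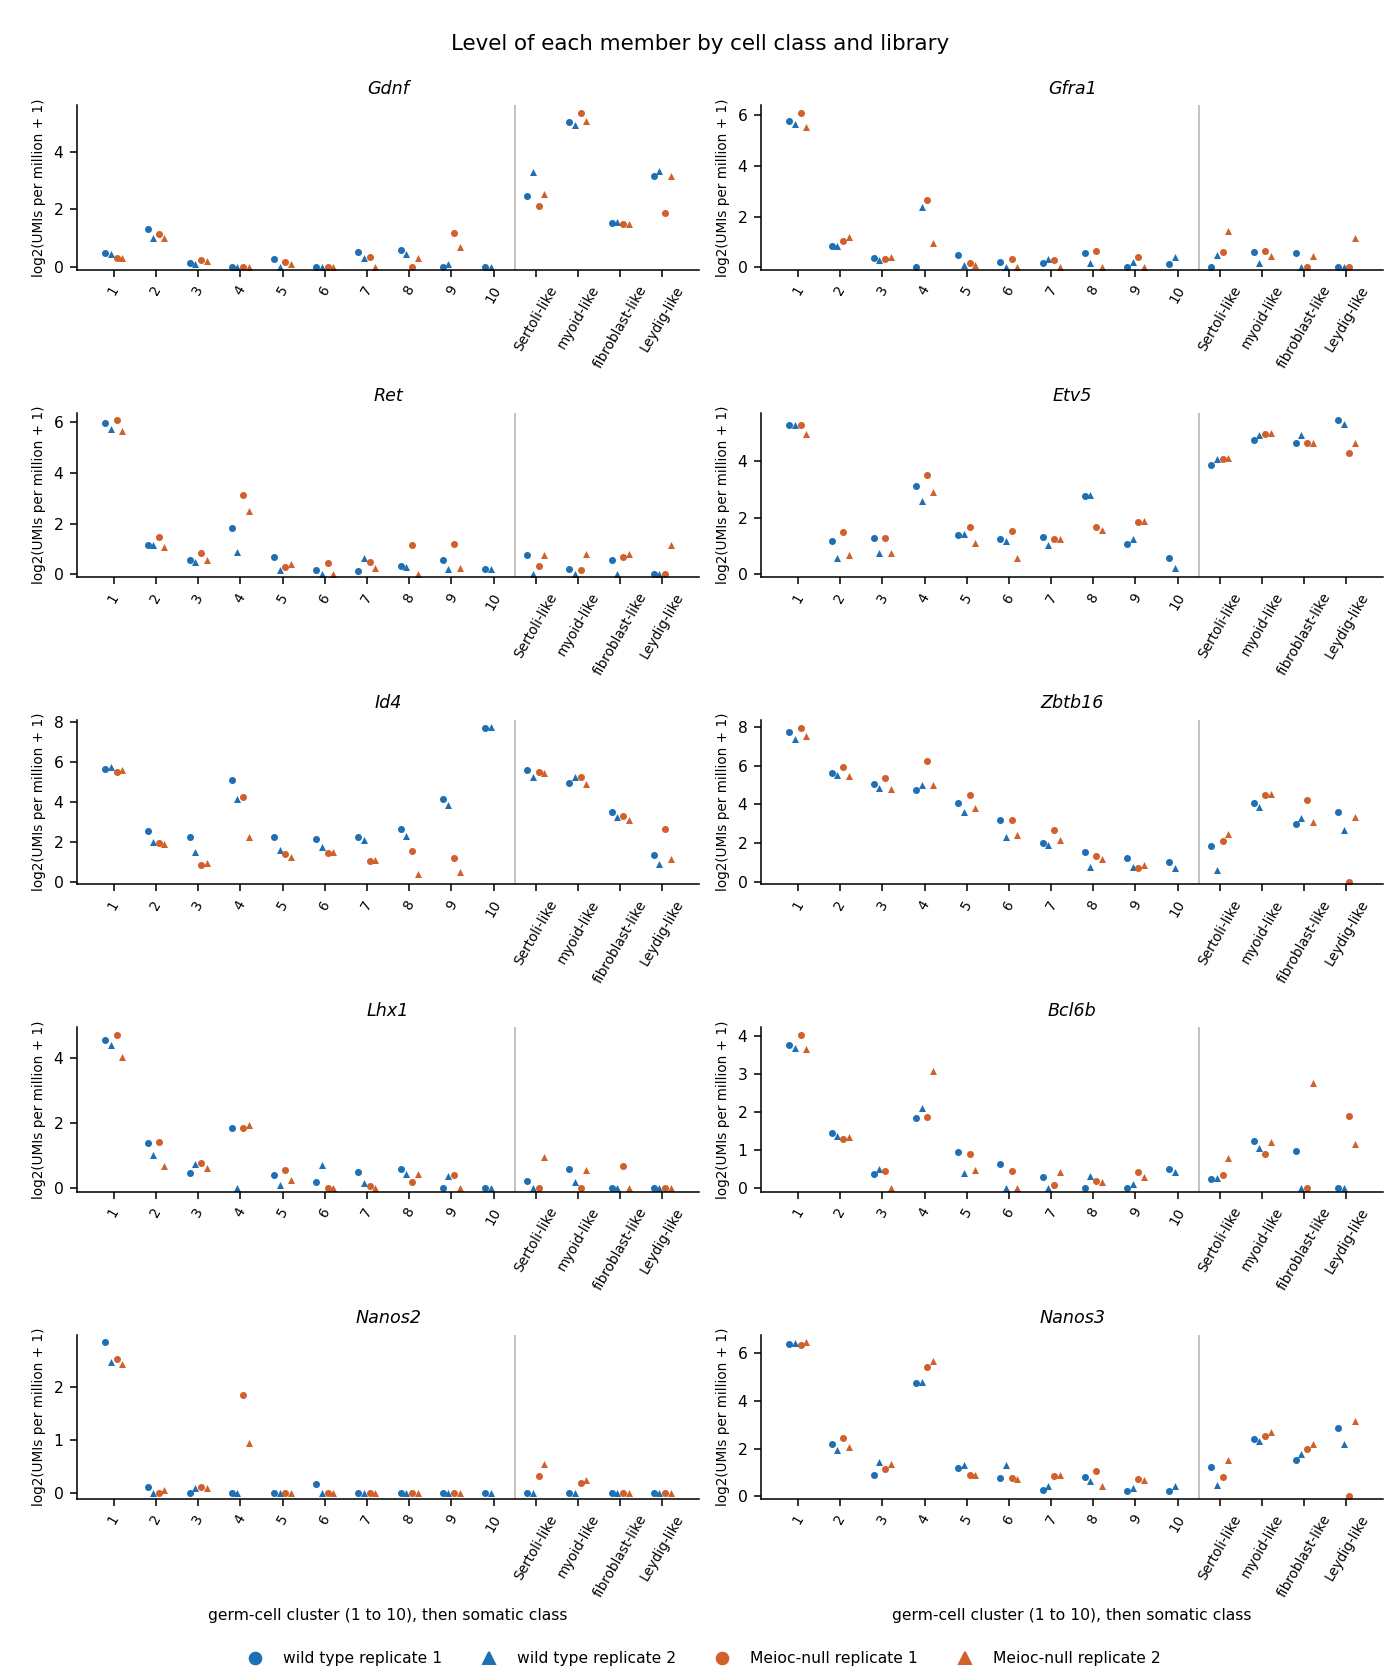
Level of each of the 10 genes as log2(CPM + 1), by germ-cell cluster (1 to 10, left of the grey line) and somatic class. Points are single libraries (blue wild type, orange *Meioc*-null, circles replicate 1, triangles replicate 2). *Gfra1*, *Ret*, *Lhx1*, *Bcl6b* and *Nanos2* have their highest points in cluster 1, *Gdnf* in myoid-like cells and *Id4* in cluster 10.

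Within cluster 1 the genes split between 4 sub-clusters, again made without the 10 genes. Sub-cluster 1a, which lay about as far from cluster 2 as 1b did, was led by *Ppfibp2*, *Tcl1* and *Nefm* beside the members *Gfra1* and *Lhx1*. Sub-cluster 1b was led by *Ddit4*, *Onecut2* and *Upp1*, 1c by the division genes *Mki67* and *Top2a*, and 1d, the nearest to cluster 2, by *Stra8* and *Kit*. They held 130 to 168, 136 to 171, 91 to 122 and 48 to 60 cells per library. The sub-clusters come from the same cells as the levels, so the contrasts below are given with no test.

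The receptor and GDNF-induced genes were highest in 1a by their mean over libraries. *Gfra1* was at 150, 117, 170 and 127 CPM in 1a and 9.99, 6.41, 11.2 and 9.15 CPM in 1b, a ratio of 13.9 to 18.3, and at 58.5, 67.2, 71.7 and 51.4 CPM in the dividing sub-cluster 1c. *Etv5* behaved alike, with 91.0, 93.7, 93.6 and 86.6 CPM in 1a, 7.17, 5.79, 6.00 and 4.91 CPM in 1b and a ratio of 12.7 to 17.6. *Lhx1* went from 67.6, 58.7, 82.2 and 51.2 CPM in 1a to 0.413 to 1.09 CPM in 1b. For these 3 genes no 1a value came near any 1b value.

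*Ret* was less steep than its co-receptor, at 131, 104, 138 and 107 CPM in 1a and 43.5, 31.0, 41.2 and 34.2 CPM in 1b, a ratio of 3.01 to 3.36. *Id4* had 87.3, 87.7, 77.5 and 89.7 CPM in 1a and 26.3, 23.1, 22.0 and 24.1 CPM in 1b. *Bcl6b* had 28.5, 21.9, 25.8 and 15.8 CPM in 1a and 4.34 to 9.0 CPM in 1b. Sub-cluster 1b thus had part of the *Ret* and *Id4* level of 1a and little *Gfra1*. In the dividing sub-cluster 1c *Ret* lay between the 1a and 1b levels, at 60.2, 54.8, 64.7 and 47.5 CPM. *Bcl6b* had 13.5, 14.5, 14.8 and 18.1 CPM there, below 1a in all libraries but *Meioc*-null 2.

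*Nanos3* and *Zbtb16* ran the other way. *Nanos3* was at 47.5, 50.6, 49.2 and 57.2 CPM in 1a and at 133, 143, 142 and 139 CPM in 1b, so that 1a had 0.347 to 0.413 of the 1b level. *Zbtb16* was at 205, 156, 241 and 179 CPM in 1a and 276, 219, 324 and 231 CPM in 1b, higher in 1b within each of the 4 libraries although the ranges over libraries overlapped. *Nanos2* had 13.9, 10.8, 9.77 and 6.90 CPM in 1a and 2.48 to 5.25 CPM in 1b, the opposite order to *Nanos3*. In 1d *Gfra1* had 11.5 to 15.5 CPM, *Ret* 9.15 to 12 CPM and *Etv5* 2.89 to 6.87 CPM.

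**Figure D3:**
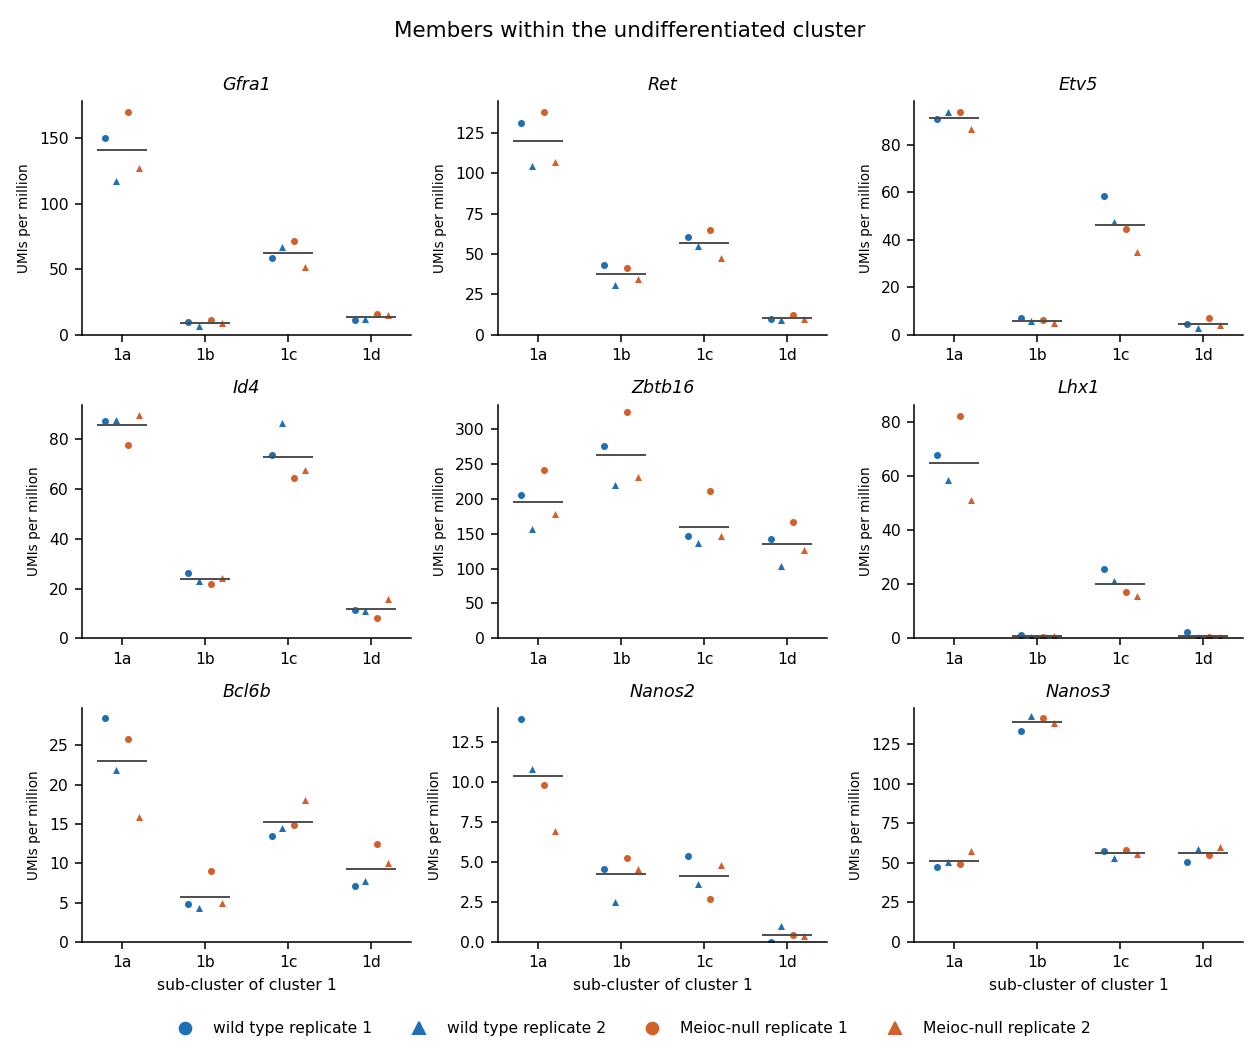
CPM of 9 genes in sub-clusters 1a to 1d of the undifferentiated spermatogonia-like cluster (all but *Gdnf*). Points are libraries and the line is their mean. *Gfra1*, *Ret*, *Etv5*, *Lhx1*, *Bcl6b* and *Id4* have their highest mean in 1a, whereas *Nanos3* lies between 133 and 143 in 1b and between 47.5 and 57.2 in 1a.

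Detection in the same cells was described as well. It uses the cluster 1 cells that formed the sub-clusters, so it is no separate support for that division. Each cluster 1 cell was thinned to 10000 UMIs, which left out 7, 19, 7 and 9 shallower cells. *Gfra1* was then detected in 138 of 415, 150 of 484, 184 of 463 and 156 of 481 cells. *Ret* was detected in 63.8, 62.0, 66.3 and 57.1% of the cells with a *Gfra1* UMI and in 35.7, 27.8, 31.2 and 29.2% of those without, a mean difference of 31.3 percentage points ± 3.90 (SD, n = 4 libraries; 23.4 ± 0.920 without thinning). *Etv5* was found in 50.6 to 66.0% of cells with and 14.2 to 16.6% of cells without *Gfra1*, and *Lhx1* in 28.8 to 38.0% and 3.6 to 4.5%. *Nanos3* had the reverse order, 29.3 to 44.2% with and 50.5 to 61.8% without. *Zbtb16* overlapped, at 70.7 to 86.4% and 76.6 to 89.6%. Both receptor genes were seen together in 21.2, 19.2, 26.3 and 18.5% of cells, and 1.94 to 4.34% of cells had no UMI of any of the 10 genes. A missing UMI at this depth does not show that a cell lacked the transcript.

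**Figure D4:**
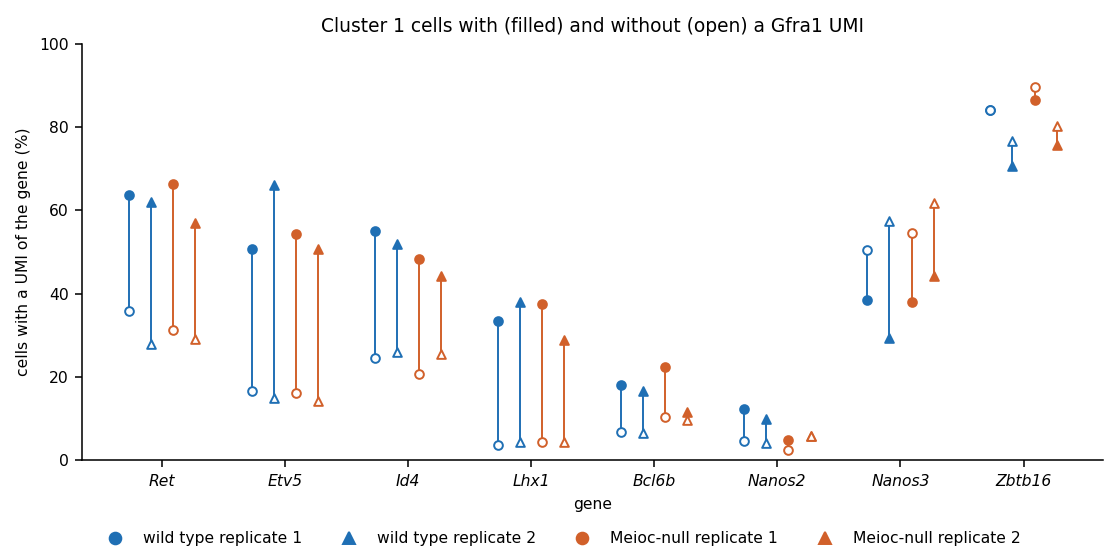
Share of cluster 1 cells, thinned to 10000 UMIs, with a UMI of each gene among cells with a *Gfra1* UMI (filled) and without one (open). Each line joins the shares of 1 library. Filled points lie above open ones for *Ret*, *Etv5*, *Id4* and *Lhx1* in all 4 libraries and below them for *Nanos3*.

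The genes whose levels were most like those of 4 members were sought over 54 values (14 classes by library) and 11153 genes, by Pearson's r of log2(CPM + 1), which is a description across classes that share libraries. *Gfra1* and *Ret* had the same 3 nearest genes, *Nefm*, *Glis3* and *Large2*, with r of 0.938, 0.923 and 0.915 for *Gfra1* and 0.953, 0.944 and 0.938 for *Ret*. *Nanos3* was nearest to *Foxf1* (0.916), *Upp1* (0.896) and *Egr4* (0.889). *Gdnf* was nearest to *Etv1* (0.933), *Myl9* (0.909) and *Synpo* (0.902), and *Etv1*, like *Etv5* an ETS factor gene, had 202, 217, 289 and 235 CPM in myoid-like cells. *Glis3*, *Upp1*, *Egr4* and *Myl9* were among the markers that named the classes.

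Of the other pathway lists, the genes with the highest wild-type levels are given. Among GDNF family genes *Nrtn*, encoding the related ligand neurturin, was highest in cluster 2 (72.9, 73.9, 66.2 and 73.3 CPM) and stood at 21.5 to 28.4 CPM in cluster 1, while the adhesion and proteoglycan co-receptor genes *Ncam1* and *Sdc3* were highest in myoid-like cells (39.3 to 62.6 and 46.8 to 52.7 CPM). The RET adaptor and SRC-family kinase genes *Grb2* and *Fyn* had 68.9 to 72.0 and 81.9 to 110 CPM in cluster 1, against highest levels of 170 to 185 CPM in cluster 5 and 206 to 235 CPM in Sertoli-like cells. *Yes1* peaked in cluster 7 at 110 to 152 CPM. Of the downstream kinases, the MEK gene *Map2k2* had 175 to 187 CPM in cluster 1 and was highest in cluster 2 at 332 to 343 CPM. Of the ERK feedback inhibitors, *Dusp6* had 25.1 to 32.0 CPM in cluster 1 and was highest in myoid-like cells at 50.3 to 75.5 CPM, *Spry1* was also highest there at 142 to 226 CPM and *Spred1* in cluster 7 at 69.9 to 96.6 CPM. *Ccnd2*, a cyclin gene, had 374 to 415 CPM in cluster 1 and 398 to 463 CPM in fibroblast-like cells, its highest class, and *Kit* had 37.5 to 51.2 CPM in cluster 1 and 262 to 276 CPM in cluster 2. *Taf4b* was highest in cluster 8, with wild-type levels of 348 and 352 CPM and *Meioc*-null levels of 250 and 238 CPM. Of the niche signals, *Igf1* and *Cxcl12* were highest in fibroblast-like cells (1051 to 1451 and 419 to 654 CPM) and *Wnt6* in Leydig-like cells (364 to 469 CPM).

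The genotypes were then compared within each class, to ask whether loss of *Meioc* went with a change in the stem cell genes. The study reports that MEIOC acts from late mitotic spermatogonia into early meiosis. In cluster 1 none of the 7 members that had a UMI in at least 25% of cells differed between genotypes by edgeR's quasi-likelihood test with Benjamini-Hochberg adjustment over 8448 genes, of which 0.0355% were called. *Id4* had a log2 fold change (wild type over *Meioc*-null) of 0.17 ± 0.13 (SE), *Etv5* 0.18 ± 0.13, *Zbtb16* -0.17 ± 0.13, *Bcl6b* (past the filter through *Meioc*-null alone) -0.12 ± 0.18, *Gfra1* -0.10 ± 0.13, *Ret* 0.01 ± 0.13 and *Nanos3* 0.01 ± 0.11, with adjusted p of 1.00 in edgeR for all 7. The *Id4* levels of the genotypes did not overlap, and those of the other 6 did. The share of all genes without overlap was not counted, here or in the other classes, so each such statement only describes the values. Without *Meioc*-null 1 the log2 fold changes of *Zbtb16*, *Bcl6b* and *Gfra1* turned to 0.0031, 0.03 and 0.13. With single libraries left out, *Id4* ranged from 0.0533 (without wild type 2) to 0.28 and *Etv5* from 0.0678 (without *Meioc*-null 2) to 0.30. *Lhx1* and *Nanos2*, below that detection share, gave 0.10 ± 0.17 and 0.23 ± 0.24 with a filter of 5% of cells.

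The genes called in cluster 1 were 3, *Fabp9*, *Meig1* and *Rsph1*, all most abundant in the pachytene-like cluster 10 that wild type alone had. *Fabp9* stood at 14.3, 9.35, 3.71 and 5.32 CPM in cluster 1 and at 3035 and 2694 CPM in wild-type cluster 10. It was higher in wild type also in cluster 7, at 18.7, 7.72, 0 and 0.261 CPM, and in myoid-like cells, at 15.4, 5.47, 0.283 and 0.278 CPM. The difference was thus not particular to cluster 1, and the part of cluster 10 RNA in these values was not tested. There were 347 and 577 *Id4* UMIs per 100 *Fabp9* UMIs in wild-type cluster 1, against 6.94 and 7.91 in cluster 10.

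Over the 12 classes with enough cells there were 13 tests of members past the 25% filter, and edgeR called 0, with 0 at an unadjusted p under 0.05 and 0 called by DESeq2. The other tests were of *Zbtb16* in cluster 2 (-0.09 ± 0.14), where 0.0116% of genes were called, and in cluster 3 (-0.13 ± 0.17), where 0.0127% were. In myoid-like cells (0.0953% called) *Gdnf* had -0.18 ± 0.16, *Etv5* -0.08 ± 0.17 and *Id4* 0.06 ± 0.16. In Sertoli-like cells (0.328% called) *Id4*, past the filter through wild type alone, had -0.01 ± 0.17. *Gdnf* was lower in the wild-type than in the *Meioc*-null library of both batches, with log2 differences of -0.30 and -0.13, and the genotypes' levels did not overlap, but the fitted difference was about its own standard error and was -0.0751 without *Meioc*-null 1 and -0.29 without *Meioc*-null 2. With the replicate number as a block (littermate pairs) the call count stayed at 0, and *Zbtb16* in cluster 1 was the sole member with an unadjusted p under 0.05, its adjusted edgeR p being 0.822.

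In the sub-clusters 20 tests of members gave 0 calls by edgeR and by DESeq2, where 0% of genes were called in 1a and in 1b and 0.103% in 1c. An unadjusted edgeR p under 0.05 was found for 4 members, all among the 8 tested in the dividing sub-cluster 1c, and for 0 by DESeq2. The share of all genes at that unadjusted p was not counted, so the values of these 4 members are given as a description. *Etv5* stood there at 58.2, 47.3, 44.5 and 35.0 CPM (log2 fold change 0.43 ± 0.17) and *Lhx1*, past the filter through wild type alone, at 25.6, 21.2, 17.2 and 15.5 CPM (0.53 ± 0.23). *Id4* stood at 73.7, 86.4, 64.4 and 67.6 CPM (0.31 ± 0.15) and *Zbtb16* at 147, 137, 211 and 146 CPM (-0.30 ± 0.15). The genotypes did not overlap for the first 3 and overlapped for *Zbtb16*, but how many of all genes in 1c did not overlap was not counted. In *Etv5*, *Lhx1* and *Zbtb16* the batch 1 library of each genotype lay above its batch 2 library. Without wild type 2 the *Id4* value was 0.13, and without *Meioc*-null 1 that of *Zbtb16* was -0.076. With the replicate block 6 tests had an unadjusted edgeR p under 0.05, these 4 and 1 each in 1a and 1b, and the adjusted edgeR p of the 4 were 0.268, 0.416, 0.521 and 0.377. Sub-cluster 1d had too few cells in a library to be tested.

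In the later clusters the genotypes differed at many genes, and 2 members were called there with a filter of 5% of cells. How closely the *Meioc*-null cells placed in these clusters match their wild-type cells was not tested. Both members passed that filter through wild type alone, so their values are given as a description. *Etv5* in cluster 8 had 5.87, 5.90, 2.20 and 1.97 CPM and a UMI in 6.07, 5.34, 2.52 and 2.72% of cells (log2 fold change 1.56 ± 0.38), in a cluster where 19.2% of genes were called higher in wild type. *Id4* in cluster 9 had 17.1, 13.5, 1.29 and 0.410 CPM from 110, 188, 4 and 2 UMIs, in 16.2, 13.2, 1.88 and 0.704% of cells (4.37 ± 0.41), where 30.8% were. In that cluster *Fabp9* was at 218, 191, 43.1 and 55.4 CPM. There were 7.85 and 7.05 *Id4* UMIs per 100 *Fabp9* UMIs in wild-type cluster 9 and 2.99 and 0.741 in *Meioc*-null. The ratio was 6.94 and 7.91 in cluster 10, and in cluster 8 it was 23.9, 34.3, 108 and 18.8, the last pair from 14 and 3 *Id4* UMIs. The part of cluster 10 RNA in the *Id4* value of cluster 9 was not tested. Cluster 9 was not alone in this order. In every germ cluster with both genotypes except the shallow cluster 4, both wild-type *Id4* values lay above both *Meioc*-null ones. In cluster 7 they were 3.78, 3.27, 1.06 and 1.18 CPM. The part of cluster 10 RNA in these values was not tested either. With no filter on detection 6 of 113 tests of members were called, *Id4* in clusters 3, 7, 8 and 9, *Etv5* in cluster 8 and *Gdnf* in cluster 9 (0, 1, 4 and 3 UMIs), clusters in which 0.475, 11.6, 19.5 and 32.4% of genes were called.

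A test of whether the genotype effect differed over the 9 germ clusters present in both genotypes was passed by 3 of the 7 members tested, against 72.6% of all 9760 genes. These were *Id4* (edgeR adjusted p = 1.82e-07), *Etv5* (0.00611) and *Nanos3* (0.0275), while *Zbtb16* (0.501), *Ret* (0.609), *Bcl6b* (0.840) and *Gfra1* (0.909) did not pass. The 3 that passed entered this test through their detection in cluster 1 in both genotypes, but the *Id4* and *Etv5* results include the sparse counts of clusters 9 and 8 described above. Leaving out single libraries took *Nanos3* over 0.05 in all 4 cases (0.0608 to 0.20). *Etv5* was lost without wild type 2 (0.205) and without *Meioc*-null 1 (0.0540). The fit holds a library term, so these p-values measure the spread of clusters within libraries and not that between mice.

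**Figure D5:**
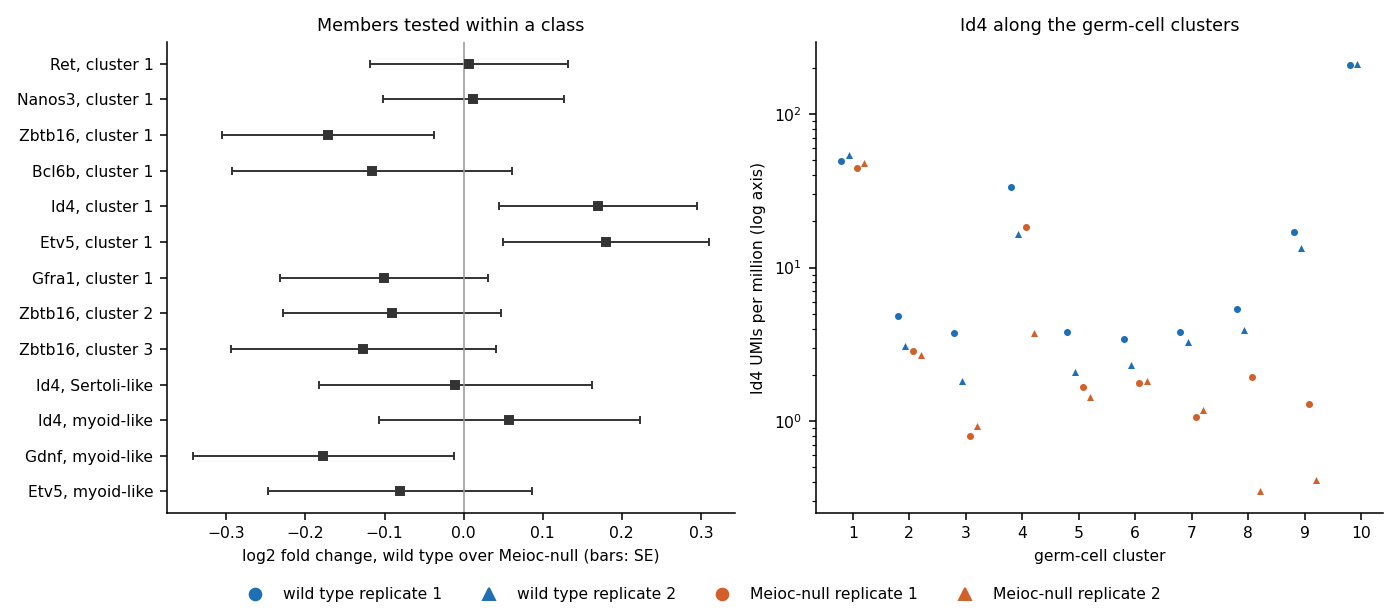
Left, log2 fold change (wild type over *Meioc*-null) with its standard error for the 13 tests of members past the 25% filter, none of which passed the threshold. Right, *Id4* CPM on a log axis along the germ-cell clusters, by library, where cluster 10 holds wild-type cells only. Wild-type points lie above *Meioc*-null points in every cluster with both genotypes except the shallow cluster 4. They are furthest apart in cluster 9 (17.1 and 13.5 against 1.29 and 0.410).

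Of the 86 other pathway genes, 45 were tested in cluster 1 and 0 were called by edgeR. Their median log2 fold changes by list lay between -0.07 (10 of 18 RET adaptor genes tested) and 0.12 (3 of 10 GDNF family genes), near the all-gene median of -1.59e-05. None of the 41 tested in myoid-like or the 26 tested in Sertoli-like cells was called, nor any in fibroblast-like cells (0.0225% of all genes called) or in clusters 2 to 6 (at most 1.18%). In cluster 7, where 25.5% of all genes were called in either direction, 1 of 30 was higher and 10 were lower in wild type, among them the RET adaptor genes *Sos1* and *Ptpn11* with log2 fold changes of -0.83 and -1.12. In cluster 8 (47.6% of all genes in either direction) 3 of 24 were higher, among them *Taf4b*, and 10 lower, and in cluster 9 (66.6%) 6 of 28 were higher and 15 lower, among them the ERK kinase gene *Mapk3* with a log2 fold change of -1.74. The share of all genes in each direction was not counted for these tests, so the split by direction is a description only.

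Cluster 1 made up 9.65% and 7.98% of the wild-type and 9.05% and 9.5% of the *Meioc*-null germ cells, or 8.81% ± 1.19 and 9.27% ± 0.32 (SD, n = 2 each). The difference went in opposite directions in the 2 batches (-0.61 and 1.53 percentage points, *Meioc*-null minus wild type). An exact two-sided permutation test gave p = 1, and 0.333 is the smallest p that 2 against 2 libraries allow. The exact binomial 95% intervals were 8.79 to 10.6, 7.32 to 8.67, 8.28 to 9.86 and 8.71 to 10.3%, so the shares of the genotypes were interleaved.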

How the data were processed

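Single-cell RNA-seq of 4 P15 testes was used. Per the labels and the study's methods, the authors made libraries with 10x Genomics 3′ v3.1 chemistry and obtained the deposited matrices of whole-number UMI counts per gene and barcode with Cell Ranger 4.0.0 and the mm10 (GRCm38) reference; they clustered cells in Seurat, but no cell annotation was used here. Each matrix held 11986 to 16486 barcodes and 158291903 to 190455307 UMIs, which sets the precision for low genes such as *Gdnf* and *Nanos2*.

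Barcodes with more than 1000 detected genes and under 10% mitochondrial UMIs were kept. Doublet scores were computed with Scrublet in scanpy 1.11.5, and those with the highest scores were dropped at a rate of 0.8% for every 1000 deposited barcodes, since the caller's own threshold marked 1.77 to 4.54%. Wild-type cells were clustered on 2000 variable genes, 30 principal components and a graph of 20 neighbours (leidenalg 0.10.2), and every other cell took the class of its 30 nearest wild-type cells. Clusters were named from marker lists. Members and listed pathway genes were kept out of the variable genes. Members, markers and pathway lists were chosen with earlier results of these data known.

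UMIs were summed per library and class. Genotypes were compared with edgeR 4.0.16 (R 4.3.3; TMM, robust quasi-likelihood F test, all 4 libraries, genotype as the sole term, as in the study's comparison without a batch term) for genes detected in at least 25% of the cells in wild type or *Meioc*-null, and classes with at least 50 cells in each library. Calls needed a Benjamini-Hochberg adjusted p under 0.05 over all genes tested and an absolute log2 fold change over 0.1. The interaction fit held library, cluster and genotype by cluster. The fits were also run on simulated counts. In cluster 1 they called 96 of 100 genes changed 2-fold and 100 of 100 changed 4-fold, with 27 false calls in 8448 genes. In myoid-like cells they called 100 and 99 of 100, with 8 false calls. The interaction fit called 157 of 192 genes changed 4-fold, with 8 false calls. Changes as small as those of the members were not simulated. Replicate numbers pair littermates of 1 batch, per the labels, and the deviations of same-numbered libraries correlated at 0.180 to 0.646 over the 12 classes, so a fit with the replicate block was also run. Further alternatives were DESeq2 1.42.0, its size factors in edgeR, other detection filters, no doublet removal, a mitochondrial limit of 5%, listed genes allowed in clustering, 15 nearest cells and leaving out each library.

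All 10 members were named, and for *Gfra1*, *Ret*, *Gdnf* and *Nanos3* the 3 genes of most similar level among those with a mean of at least 5 CPM. Of the other pathway lists, genes called in cluster 1 or a somatic class would have been named, and otherwise the 3 with the highest wild-type level of each list, some of which are not reported here; *Sos1*, *Ptpn11* and *Mapk3*, and the genes called in cluster 1 outside the lists, were named after their values were seen. Coordinates come from GENCODE on GRCm38 and start regions from RefSeq (GRCm38.p6), which gave 9 for 7 of the 10 members.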

Additional observations from a re-analysis of the deposited data

Results flagged for a closer look

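The genotype effect of 3 members differed over the 9 germ-cell clusters by edgeR's test of all genotype-by-cluster terms, and each is given because of that test of the difference itself. *Id4* had an adjusted edgeR p of 1.82e-07, with log2 fold changes of 0.17 ± 0.13 in cluster 1 and 4.37 ± 0.41 in cluster 9. *Etv5* had an adjusted edgeR p of 0.00611, with 0.18 ± 0.13 in cluster 1 and 1.56 ± 0.38 in cluster 8, and the interaction call was lost without wild type 2 or *Meioc*-null 1. *Nanos3* had an adjusted edgeR p of 0.0275, with 0.01 ± 0.11 in cluster 1 and -0.84 ± 0.38 in the shallow cluster 4, and the call was lost without any 1 of the 4 libraries. The cluster 8 and cluster 9 values are descriptions, since *Etv5* and *Id4* reached detection in 5% of cells there in wild type alone. Of all genes 72.6% passed the same test.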

How the results depend on the processing

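The count of members called within classes was 0 and stayed 0 with the replicate block, DESeq2, its size factors and no doublet removal. It also stayed 0 with listed genes in clustering, 15 nearest cells and each library left out (0 to 0). The mitochondrial limit of 5% gave 0 as well, but no cluster matched cluster 1 or 2 there. Of the reported fold changes it held only those in myoid-like cells. The count was 2 with a 5% filter (*Etv5* in cluster 8 and *Id4* in cluster 9, both past that filter through wild type alone) and 6 of 113 with no filter, where *Gdnf* in cluster 9 rested on 0, 1, 4 and 3 UMIs. The replicate block changed no other call. Over 195 alternative fold changes of 17 tests, 0 passed the threshold (smallest adjusted edgeR p 0.268) and 18 changed sign. *Ret* in cluster 1 became -0.00041 with no filter and -0.033 with no doublet removal, and *Id4* in Sertoli-like cells 0.0065 with the 5% filter, 0.031 with no filter and 0.064 with no doublet removal.

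With single libraries left out, the fold changes that turned ranged from -0.14 to 0.17 (*Ret*, cluster 1), -0.088 to 0.12 (*Nanos3*, cluster 1), -0.33 to 0.0031 (*Zbtb16*, cluster 1), -0.26 to 0.035 (*Bcl6b*, cluster 1), -0.30 to 0.13 (*Gfra1*, cluster 1), -0.27 to 0.11 and -0.35 to 0.14 (*Zbtb16*, clusters 2 and 3), -0.20 to 0.14 (*Id4*, Sertoli-like), -0.12 to 0.21 (*Id4*, myoid-like) and -0.20 to 0.020 (*Etv5*, myoid-like). The interaction count of 3 was 1 without wild type 2 and 1 without *Meioc*-null 1 (range 1 to 2), and its library term already holds the pairing. The cause of these shifts was not tested.

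Wild-type mean levels in the highest class moved past the spread between libraries with no doublet removal for *Gdnf* (31.2 to 25.7 CPM), *Gfra1* (51.9 to 49.2), *Etv5* in Leydig-like cells (40.8 to 34.3), *Id4* in cluster 10 (212 to 207) and *Nanos3* (83.5 to 80.4). The mitochondrial limit of 5% gave 37.8 CPM for *Etv5* and 224 CPM for *Id4*, and left no cluster that matched cluster 1 or 2. Of the fold changes in the report it gave only the 3 in myoid-like cells, with no call. Listed genes in clustering gave 46.7 CPM for *Gfra1*, 19.0 for *Lhx1* (21.1 as reported) and 75.4 for *Nanos3*. The *Ret* detection difference was 23.4 percentage points unthinned. With 2 libraries per genotype, *Nanos2* and *Gdnf* in most classes were too sparse to test, and fewer cells detected cannot be told apart from fewer transcripts per cell.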

Other observations

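A few values lie outside the comparisons above. *Nanos3* in the shallow, unnamed germ cluster 4 had wild-type levels of 26.0 and 26.6 CPM and *Meioc*-null levels of 41.8 and 50.3 CPM (log2 fold change -0.84 ± 0.38, unadjusted edgeR p of 0.0266 with the 5% filter). *Zbtb16* in myoid-like cells had 15.7 and 13.9 CPM without and 21.5 and 22.3 CPM with loss of *Meioc* (log2 fold change -0.53 ± 0.19 with the 5% filter, unadjusted edgeR p of 0.00860, adjusted p = 1.00). *Gdnf* in Sertoli-like cells went the other way from myoid-like cells, at 4.56 and 9.0 against 3.34 and 4.74 CPM (0.75 ± 0.37, edgeR adjusted p = 0.999), and the difference between these classes was not tested. It passed the filter through wild type alone, and wild type 1 lay below *Meioc*-null 2. *Bcl6b* in fibroblast-like cells reached 5.82 CPM from 16 UMIs in *Meioc*-null 2, where the endothelial marker *Pecam1* stood at 64.0 CPM against 0.396 to 3.01 CPM in the other libraries, and the summed endothelial markers of this class ranged from 182 to 866 CPM. The part of endothelial cells in the *Bcl6b* value was not tested.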
